A study of Mus musculus with 30 samples.

Results

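The genes described here encode the extracellular matrix of the fetal mouse testis: 18 basement membrane components, 6 chains of fibrillar collagens, 4 chains of microfibril and fibril-associated collagens, 4 genes of fibronectin and elastic fibres, 3 small leucine-rich proteoglycans and 2 matricellular proteins. They are 37 of the 49315 genes counted. They were taken from a list of symbols matched to the Ensembl identifiers, chosen by what they encode, with earlier results of these data known. RNA was sequenced from 30 cultures of C57BL/6 testes that were taken on gestational day 14, freed of the mesonephros and kept on a culture insert for 24 h in medium that held ascorbic acid. All cultures, controls included, held DMSO at a dilution of 1 in 4000. The groups were vehicle (DMSO alone, 15 libraries), MEHP at 100 µM (6 libraries), ATRA at 1 µM (5 libraries) and MEHP + ATRA at the same doses (4 libraries). MEHP is mono-(2-ethylhexyl) phthalate, the active monoester of a common plasticizer, and ATRA is all-trans retinoic acid, the ligand of the retinoic acid receptors. No transgene or mutant allele is given for any group. The design asks what each compound changed and whether the change with one depended on the other.

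A basement membrane is a thin sheet built from a laminin network and a type IV collagen network that nidogens and the heparan sulfate proteoglycan perlecan hold together. In the fetal testis it wraps the cords of Sertoli and germ cells, and Sertoli and peritubular myoid cells both contribute its parts. The interstitium between the cords is filled by fibrils of collagens I, III and V, by type VI collagen microfibrils, by fibronectin and elastic fibres, and by proteoglycans that bind to the fibrils.

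The second number in each library title, whose meaning is not stated, splits the cultures into a lower range of 416 to 465 and an upper one of 525 to 599. MEHP was tested only at upper numbers, ATRA and MEHP + ATRA only at lower ones, so MEHP was set against the 6 upper-range vehicle libraries and the others against the 9 lower-range ones. ATRA and MEHP + ATRA thus share their vehicle libraries. Since no label ties a library to an animal or litter, every p-value rests on the spread among libraries alone, and this spread may be technical. Library totals ran from 17551454 to 29306917 counts, and all 37 genes passed the filter on low counts, with 68 to 78482 counts per gene and library. Sertoli, myoid, interstitial progenitor, Leydig, germ, endothelial, macrophage and erythroid markers were all detected, and no marker was at 0 in any group. Markers of mesonephros and epithelium were detected too, with a summed level of 92.7 to 146 CPM in lower-range vehicle. There 6 of those 8 markers and 11 of 12 germ cell markers had a mean of at least 1 CPM. As checks of the treatments, Dhrs3, an enzyme gene induced by retinoic acid, rose by 2.59 ± 0.06 with ATRA (log2 fold change ± SE, edgeR adjusted p = 7.61e-24), and Angptl4, a target of the PPAR receptors, rose by 1.39 ± 0.07 with MEHP (edgeR adjusted p = 4.40e-14). Upper-range vehicle replicate 3, lower-range vehicle replicate 7 and MEHP replicate 4 stood apart from their groups in 3 matrix genes each (replicate numbers are in accession order and are names only). Without the first of them the MEHP counts given next move from 2 higher and 1 lower to 3 higher and 4 lower, and without either of the others they stay at 2 and 1.

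With ATRA, 18 of the 37 genes fell and 5 rose, where 18.1% of all 19323 tested genes were called in either direction (9.03% lower and 9.06% higher). Their median log2 fold change was -0.21, and that of all tested genes was -0.000183. With MEHP + ATRA, 16 fell and 11 rose, with a median of -0.18 against -0.01 over all genes (background 29% called, 14.7% lower and 14.3% higher). MEHP alone changed 3 of the 37: Lama4 and Sparc rose and Col3a1 fell, beside a background of 4.72% (2.88% higher and 1.84% lower). With the first number of the library title as a replicate block, 5 rose and 2 fell with MEHP. That fit called 713 higher and 514 lower among all 19323 tested genes, against 556 and 356 without the block. A gene is called here where its adjusted p in the edgeR quasi-likelihood test was below 0.05, and levels are CPM, counts scaled to the effective size of each library. In all, 8 genes were called in none of the 3 comparisons: Lama5, Nid2, Hspg2, Col5a3, Col6a3, Fbn2, Lum and Postn. The share of all tested genes called in none of the 3 was not counted. The shares over all genes given above also stand beside the counts by role group below. In whole tissue a lower level can come from fewer cells of a type or from less RNA per cell, and these cannot be told apart.

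**Figure D1:**
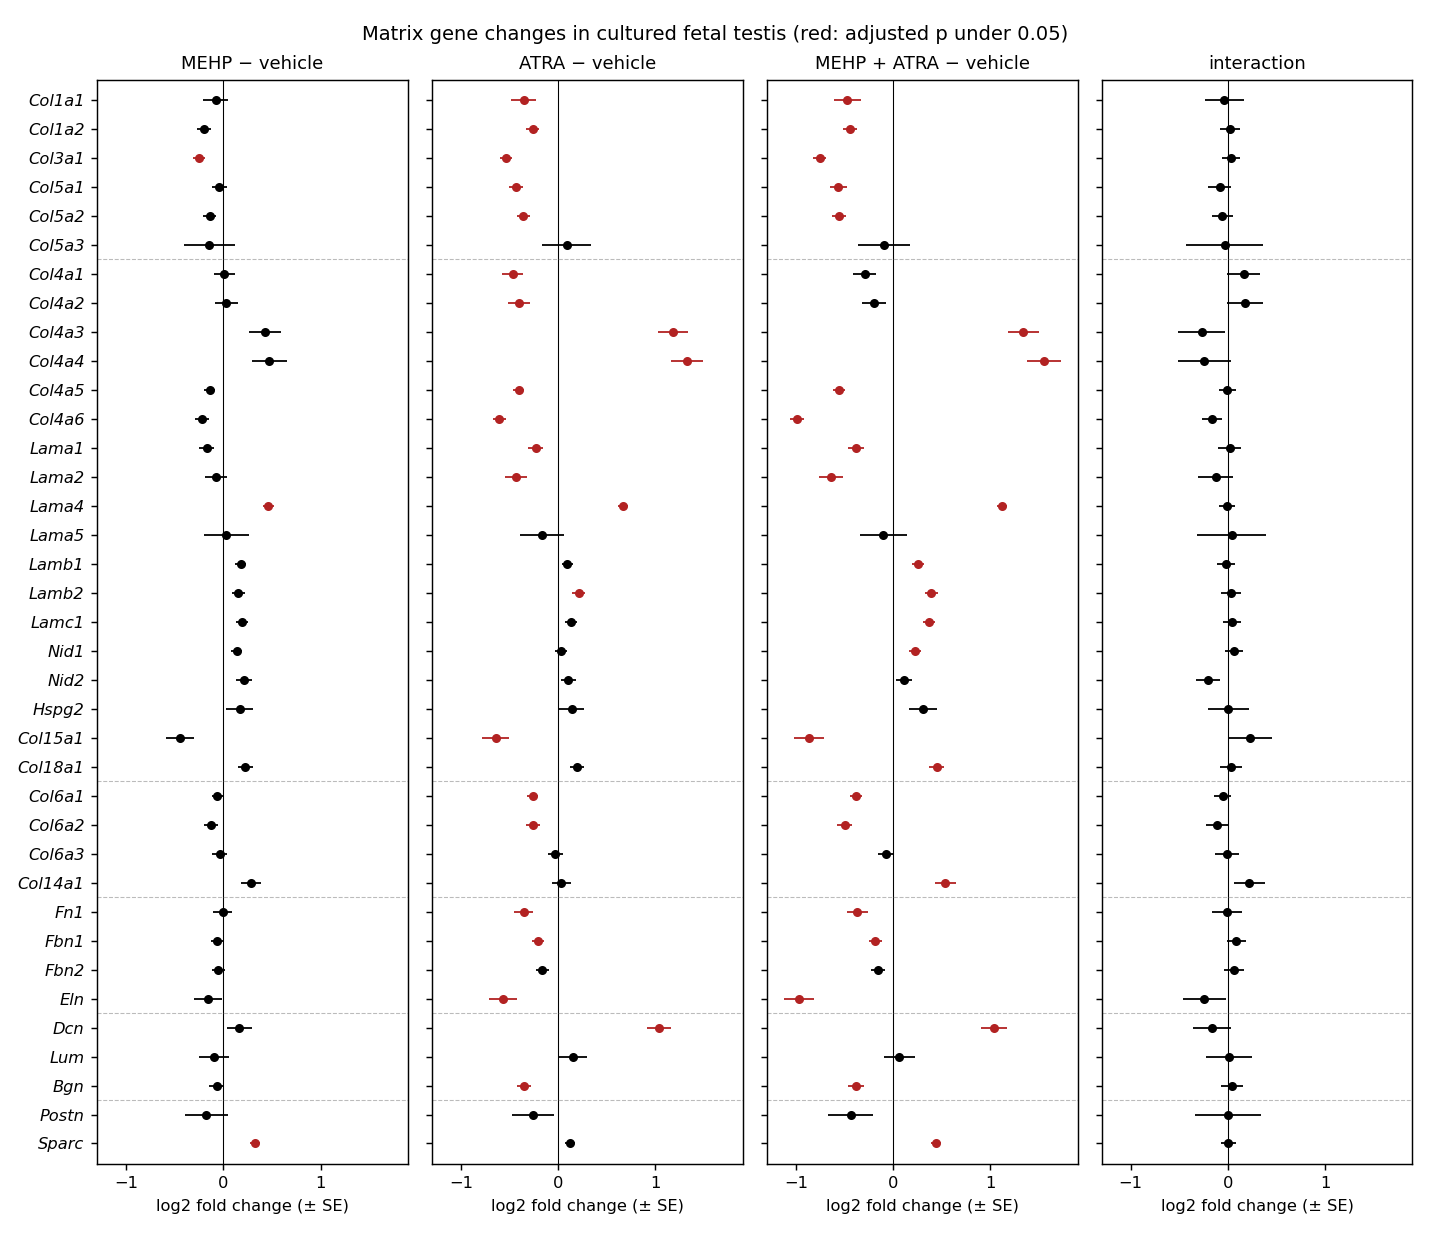
Log2 fold change (x axis, ± SE) of each of the 37 matrix genes, grouped by role between dashed lines, for MEHP, ATRA and MEHP + ATRA against vehicle of the same range and for the interaction; red points passed the edgeR test. Red points of 5 of the 6 fibrillar collagens lie left of 0 with ATRA and MEHP + ATRA, Col4a3, Col4a4, Lama4 and Dcn lie right of it, and no point is red in the interaction panel.

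Per unit of the gene length in the files (RPKM, CPM per kilobase), the matrix genes of vehicle cultures were led by Col6a1, Sparc and Col3a1. That length is an annotated value for the gene and not a transcript length. Orders, shares and ratios between genes therefore depend on the annotation. In the lower-range vehicle libraries Col6a1 stood at 324 ± 17 RPKM, Sparc at 318 ± 12.1, Col3a1 at 305 ± 14.6, Col1a1 at 236 ± 26.3 and Col4a1 at 215 ± 26.3 (SD, n = 9). At the low end were Col4a4 with 1.97 ± 0.349 RPKM, Col5a3 with 1.39 ± 0.248 and Col4a3 with 0.435 ± 0.0503. In this order, neighbours overlapped in their library ranges except at 4 steps, those below Lama1 (19.9 RPKM), Col14a1 (12.5 RPKM), Lama2 (8.19 RPKM) and Col5a3. The 37 genes together took 2.15% ± 0.108 of all counts in lower-range vehicle, 1.87% ± 0.108 with ATRA (n = 5) and 1.85% ± 0.109 with MEHP + ATRA (n = 4). In upper-range vehicle the share was 2.15% ± 0.154 and with MEHP 2.1% ± 0.123 (n = 6 each).

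**Figure D2:**
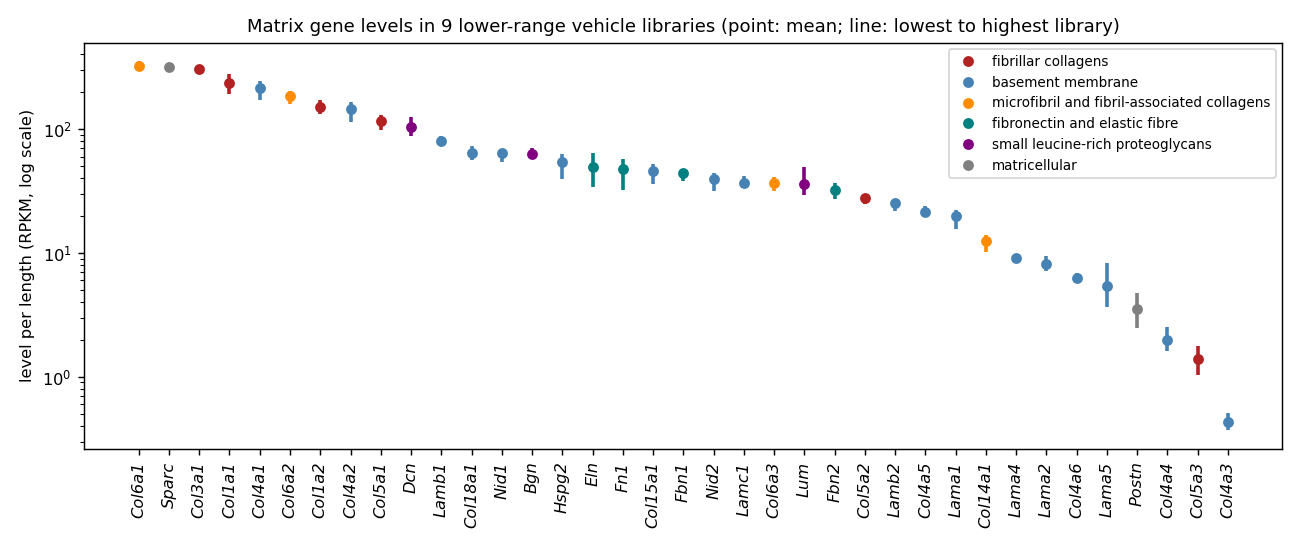
Level per length (y axis, RPKM, log scale) of the 37 genes in the 9 lower-range vehicle libraries, in falling order; points are means, lines run from the lowest to the highest library and colours give the role. Col6a1, Sparc and Col3a1 lead with 305 to 324 RPKM, and Col4a3 is lowest with 0.435.

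The 6 type IV collagen genes split by pair with ATRA. Type IV collagen is the network-forming collagen of basement membranes, and its genes sit in 3 head-to-head pairs. Col4a1 is paired with Col4a2, whose chains make the widespread network. Col4a3 with Col4a4 and Col4a5 with Col4a6 form the other pairs, whose chains serve specialised membranes. Col4a3 (ENSMUSG00000079465, chr1:82586921-82722059) and Col4a4 (ENSMUSG00000067158, chr1:82448423-82586849) rose. Col4a1 (ENSMUSG00000031502, chr8:11198423-11312826), Col4a2 (ENSMUSG00000031503, chr8:11312805-11449287), Col4a5 (ENSMUSG00000031274, chrX:141475385-141689234) and Col4a6 (ENSMUSG00000031273, chrX:141165403-141474076) fell. Positions are those of the files, on a GRCm38 frame. The 5' ends of Col4a1 and Col4a2 share 22 bases, those of Col4a3 and Col4a4 lie 71 bases apart, and 1308 bases separate those of Col4a5 and Col4a6.

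The sequences between and before these starts are shown because with ATRA the 2 genes of each pair moved the same way. Col4a3 and Col4a4 rose, and both other pairs fell. They are from RefSeq's promoter windows (GRCm38.p6), written 5' to 3', with capitals for the Sp1 motif GGGCGG on either strand. Shown are the stretch between the Col4a3 and Col4a4 starts (chr1:82586850-82586920, strand -, 69.0% G + C), the bases shared by Col4a1 and Col4a2 (chr8:11312805-11312826, strand +, within the first exon of both) and the 250 bases before the Col4a6 start (chrX:141474077-141474326, strand -, 47.6% G + C).
Col4a3 and Col4a4: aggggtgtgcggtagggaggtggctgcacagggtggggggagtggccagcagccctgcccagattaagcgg
Col4a1 and Col4a2: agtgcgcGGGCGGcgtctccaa
Col4a6: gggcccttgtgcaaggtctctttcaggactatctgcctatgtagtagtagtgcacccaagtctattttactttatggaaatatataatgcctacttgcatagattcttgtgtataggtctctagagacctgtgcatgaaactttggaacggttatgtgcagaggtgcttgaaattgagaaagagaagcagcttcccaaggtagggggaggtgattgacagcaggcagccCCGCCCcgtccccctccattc
For 4 motifs searched on both strands (the TATA box TATAAA, the CCAAT box, the Sp1 motif GGGCGG and the nuclear receptor half-site AGGTCA), the Col4a3 and Col4a4 stretch held none. AGGTCA was found in the windows of 2 of the 24 matrix genes that had one (Col4a4, outside the printed stretch, and Postn; 27 windows in all) and in 16.3% of all 32851 windows of that length. GGGCGG was in 16 of the 24 and in 35.7% of all windows, CCAAT in 9 of the 24 and in 37.4%, TATAAA in 2 of the 24 (Col3a1 and Postn) and in 13.6%. These are matches of letters and not shown sites, and a missing match says only that the letters are not in the window.

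Col4a4 stood at 17.2 to 26.9 CPM (median 19.3, n = 9) in lower-range vehicle. It stood at 51.1, 46.8, 46.1, 55.7 and 62 CPM in the 5 ATRA libraries and at 57.8, 59.4, 61.1 and 66.7 CPM in the 4 MEHP + ATRA libraries. Every treated library was above every vehicle library of its range. The rise was 1.32 ± 0.17 in log2 with ATRA (edgeR adjusted p = 5.01e-07) and 1.55 ± 0.18 with MEHP + ATRA (adjusted p = 3.30e-08). Col4a3, the least abundant of the 37, ranged from 3.68 to 5.13 CPM (median 4.49, n = 9) in vehicle. It stood at 8.86, 9.86, 8.85, 9.69 and 12.1 CPM with ATRA and 10.7, 10.2, 10.5 and 12.7 CPM with MEHP + ATRA, again without overlap. It rose by 1.18 ± 0.15 (edgeR adjusted p = 6.71e-07) and 1.34 ± 0.16 (adjusted p = 8.24e-08). An antisense transcript, C430014B12Rik, shares 563 exon bases with Col4a3, and without the strand setting of the counting its effect on the Col4a3 count is not known. With MEHP alone the estimates were 0.43 ± 0.16 for Col4a3 and 0.47 ± 0.18 for Col4a4 and did not pass (edgeR adjusted p = 0.152 and 0.157). Col4a4 ranged from 18.3 to 41.5 CPM (median 34, n = 6) in upper-range vehicle and 22.3 to 61.1 CPM (median 43, n = 6) with MEHP, with overlap. Without MEHP replicate 2, which had the lowest value of its group in both genes, the adjusted p was 0.029 for Col4a3 and 0.0228 for Col4a4. From the lower to the upper vehicle group the estimates were 0.51 ± 0.15 and 0.57 ± 0.17 and did not pass (edgeR adjusted p = 0.113 and 0.106).

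The X-linked pair fell. Col4a6 ranged from 46.3 to 55.4 CPM (median 48.4, n = 9) in vehicle, against 34.1, 33.9, 29.1, 31.7 and 35.8 CPM with ATRA and 26.7, 26, 25.1 and 23.3 CPM with MEHP + ATRA. The 3 groups were fully separated, with the 4 co-treated libraries lowest. Col4a6 fell by 0.61 ± 0.07 with ATRA (edgeR adjusted p = 3.01e-08) and by 0.99 ± 0.07 with MEHP + ATRA (adjusted p = 4.76e-12). It fell by 0.38 ± 0.08 from ATRA to MEHP + ATRA (adjusted p = 0.00482). With MEHP alone it ranged from 41.5 to 48.6 CPM (median 47.1, n = 6) against 46.4 to 61.5 CPM (median 53.9, n = 6) in upper-range vehicle, an estimate of -0.22 ± 0.07 at the edge of the threshold (edgeR adjusted p = 0.0537). It passed with DESeq2 (0.027), with RLE scaling (0.0476), with library size only (0.0463) and without any 1 of ATRA replicate 3 and upper-range vehicle replicates 2, 3 and 5. Col4a5 went from 133 to 159.7 CPM (median 139.8, n = 9) in vehicle to 121, 109.8, 99.2, 103 and 107 CPM with ATRA and 104, 94.7, 103 and 88.6 CPM with MEHP + ATRA, below all vehicle libraries in each case. Its falls were 0.41 ± 0.06 (edgeR adjusted p = 2.60e-06) and 0.55 ± 0.06 (adjusted p = 2.39e-08) in log2.

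Col4a1 and Col4a2, the abundant pair, fell with ATRA. Col4a1 ranged from 1279.7 to 1816 CPM (median 1616, n = 9) in vehicle and stood at 1188, 1238, 962, 1230.0 and 1185 CPM with ATRA, below every vehicle library. It fell by 0.47 ± 0.11 (edgeR adjusted p = 0.00212), and Col4a2 by 0.40 ± 0.12 (adjusted p = 0.0129) with overlap between the groups. With MEHP + ATRA the estimates were -0.29 ± 0.12 for Col4a1 and -0.19 ± 0.12 for Col4a2 and did not pass (edgeR adjusted p = 0.0599 and 0.265). Col4a1 stood at 1602, 1262, 1231 and 1144 CPM there, so that 1 of the 4 libraries lay inside the vehicle range, and without that library, replicate 1, the adjusted p was 0.0177; it was 0.000748 with limma-voom. From ATRA to MEHP + ATRA neither gene passed the test. Of the summed per-length level of the 6 genes, Col4a3 and Col4a4 made up 0.623% ± 0.134 in lower-range vehicle, 2.03% ± 0.231 with ATRA and 2.14% ± 0.407 with MEHP + ATRA, and Col4a1 and Col4a2 held 92.2% ± 1.02, 91% ± 0.614 and 92.4% ± 0.863. Sertoli cell markers moved with ATRA too: 9 of 16 were called higher and 1 lower (9.06% and 9.03% of all tested genes). With MEHP + ATRA 9 of these markers were higher and 1 lower (14.3% and 14.7% of all tested genes). Their summed level overlapped between groups (3677 to 5141 CPM in lower-range vehicle, 4183 to 4694 with ATRA, 3846 to 5253 with MEHP + ATRA). Their part in the type IV results was not tested.

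**Figure D3:**
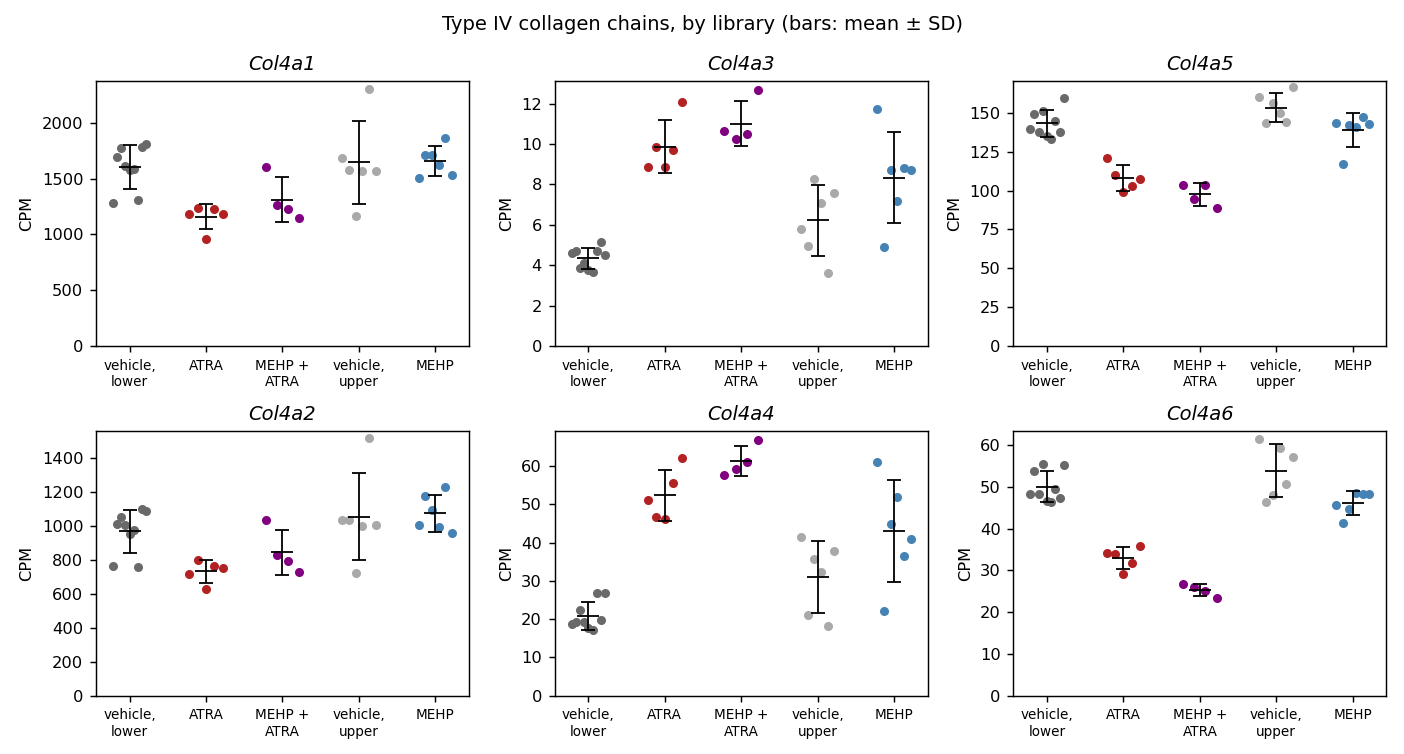
Level (y axis, CPM from 0) of the 6 type IV collagen genes in each library, by group; points are libraries and bars the mean ± SD. Col4a3 and Col4a4 lie higher with ATRA and MEHP + ATRA than in lower-range vehicle, and Col4a5 and Col4a6 lower, with no overlap in these 4 genes.

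Laminins are trimers of an alpha, a beta and a gamma chain, and the alpha chain decides which receptors and partners they meet. Lama4 (ENSMUSG00000019846, chr10:38965515-39110188), the alpha chain typical of vessels, muscle and fat, rose in all 3 comparisons, and Lama1 and Lama2 fell with ATRA and with MEHP + ATRA. Lama4 ranged from 102 to 119 CPM (median 107, n = 9) in lower-range vehicle and stood at 191, 163, 150.0, 173 and 187 CPM with ATRA. With MEHP + ATRA it stood at 251, 229, 240.3 and 228 CPM. In the upper range it went from 92.6 to 115 CPM (median 106, n = 6) in vehicle to 134 to 150.4 CPM (median 146, n = 6) with MEHP. No treated group overlapped its vehicle group, and the co-treated libraries were the highest of all. The rise was 0.46 ± 0.06 with MEHP (edgeR adjusted p = 1.18e-06) and 0.67 ± 0.05 with ATRA (adjusted p = 2.91e-11). It was 1.12 ± 0.05 with both (adjusted p = 3.44e-16) and 0.45 ± 0.06 from ATRA to both (adjusted p = 3.60e-05). The interaction was -0.01 ± 0.08 (95% interval -0.18 to 0.17). This bounds how far the MEHP step with ATRA, in the lower range, could differ from that without it, in the upper range. Endothelial markers moved with MEHP, with 4 of 12 called higher and 0 lower (2.88% and 1.84% of all tested genes). Their summed level was 316 to 547 CPM in upper-range vehicle and 348 to 610 with MEHP. With ATRA 1 of the 12 was higher and 0 lower (9.06% and 9.03% of all tested genes). With MEHP + ATRA these counts were 1 and 1 (14.3% and 14.7% of all tested genes). The markers summed to 318 to 516 CPM in lower-range vehicle, 291 to 471 with ATRA and 403 to 492 with MEHP + ATRA. Their part in the Lama4 result was not tested.

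Lama2, the alpha chain of muscle and mesenchymal basement membranes, ranged from 117 to 153 CPM (median 135, n = 9) in vehicle against 117, 93.6, 72.7, 95.8 and 115 CPM with ATRA and 92.1, 83.3, 93.7 and 74.2 CPM with MEHP + ATRA. The highest ATRA library reached the lowest vehicle libraries, and the co-treated libraries did not. It fell by 0.44 ± 0.11 (edgeR adjusted p = 0.00515) and 0.64 ± 0.12 (adjusted p = 1.33e-04). Lama1, the embryonic alpha chain made by Sertoli cells, fell by 0.23 ± 0.08 with ATRA (edgeR adjusted p = 0.0321) and 0.38 ± 0.08 with both (adjusted p = 5.56e-04). Its ATRA libraries (156, 153, 166, 164 and 168 CPM) lay between the lowest vehicle library and the other 8, which together ranged from 149.8 to 210.4 CPM (median 193, n = 9). The ATRA call was lost in 5 of the 30 fits that left out 1 library (ATRA replicates 1, 2 or 4, or lower-range vehicle replicates 8 or 9), where the adjusted p reached 0.0799. Lama5 varied most, from 42 to 94.1 CPM (median 55.3, n = 9) in vehicle, and was not called (ATRA -0.17 ± 0.23, 95% interval -0.63 to 0.30). As a share of the summed per-length level of the 4 alpha chains, Lama4 made up 21.3% ± 0.976 in lower-range vehicle, 34% ± 1.63 with ATRA and 43.6% ± 2.96 with MEHP + ATRA, and Lama1 46.7% ± 4.12, 40.3% ± 2.67 and 33.6% ± 1.88. In the upper range Lama4 made up 19.3% ± 1.9 in vehicle and 26.2% ± 1.72 with MEHP. Lama4 was thus the largest of the 4 shares in each of the co-treated libraries, while Lama1 was the largest in each lower-range vehicle library. A further alpha chain gene, Lama3, was not among the listed genes and is not in these shares.

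The 3 beta and gamma chains, which partner the alpha chains, all rose with MEHP + ATRA. Lamb2 rose by 0.21 ± 0.07 with ATRA (edgeR adjusted p = 0.0206), a call lost without ATRA replicate 5 (0.0799), and by 0.39 ± 0.07 with MEHP + ATRA (adjusted p = 4.02e-05). Lamb1 and Lamc1, the abundant beta and gamma chains, rose with MEHP + ATRA, by 0.25 ± 0.06 (edgeR adjusted p = 0.00174) and 0.37 ± 0.06 (adjusted p = 3.45e-05). Lamc1 stood at 421, 426, 370.3 and 351 CPM in those libraries against 281 to 345 CPM (median 298, n = 9) in vehicle, without overlap. Lamb1 stood at 961, 938, 942 and 940.2 CPM against 718 to 872 CPM (median 788, n = 9), again without overlap. With MEHP alone their estimates of 0.18 ± 0.06 and 0.19 ± 0.06 did not pass (edgeR adjusted p = 0.0921 and 0.0754); with the replicate block both did (0.0349 and 0.0367). Of the linkers, Nid1 (nidogen) rose by 0.23 ± 0.06 with MEHP + ATRA (edgeR adjusted p = 0.00546), and Nid2 and Hspg2 (perlecan) were not called. Hspg2 ranged from 562 to 903 CPM (median 791, n = 9) in vehicle and stood at 1169.9, 1117, 823 and 746 CPM with MEHP + ATRA (0.31 ± 0.14, adjusted p = 0.103). With the replicate block Hspg2 was called higher there (edgeR adjusted p = 0.0142). Nid2 shares 386 exon bases with Rtraf on the opposite strand. The 2 collagens of the multiplexin type, which carry sugar chains in basement membranes, went opposite ways with MEHP + ATRA. Col15a1 ranged from 229.7 to 330.5 CPM (median 296, n = 9) in vehicle and stood at 208, 192, 158, 199 and 176 CPM with ATRA and 207, 166, 139.8 and 131 CPM with both, all below the vehicle range. It fell by 0.64 ± 0.14 (edgeR adjusted p = 0.00105) and 0.86 ± 0.15 (adjusted p = 5.35e-05). Col18a1 rose by 0.45 ± 0.08 with MEHP + ATRA (edgeR adjusted p = 2.61e-05), from 393 to 510.3 CPM (median 442, n = 9) to 709, 618, 536 and 588 CPM. With ATRA alone Col18a1 was at 0.19 ± 0.07 (edgeR adjusted p = 0.0586) and passed with DESeq2 (0.0465), limma-voom (0.00443), library size only (0.0248) and only the groups compared (0.0115). With MEHP alone Col15a1 stood at -0.45 ± 0.14 and Col18a1 at 0.23 ± 0.08, and neither passed (edgeR adjusted p = 0.0681 and 0.0881); with the replicate block both did (0.0172 and 0.027). Over the 18 basement membrane genes, 1 rose and 0 fell with MEHP (median 0.14), 4 rose and 7 fell with ATRA (median 0.06) and 8 rose and 5 fell with MEHP + ATRA (median 0.17). Of all tested genes, 2.88% rose and 1.84% fell with MEHP, 9.06% and 9.03% with ATRA, and 14.3% and 14.7% with MEHP + ATRA.

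**Figure D4:**
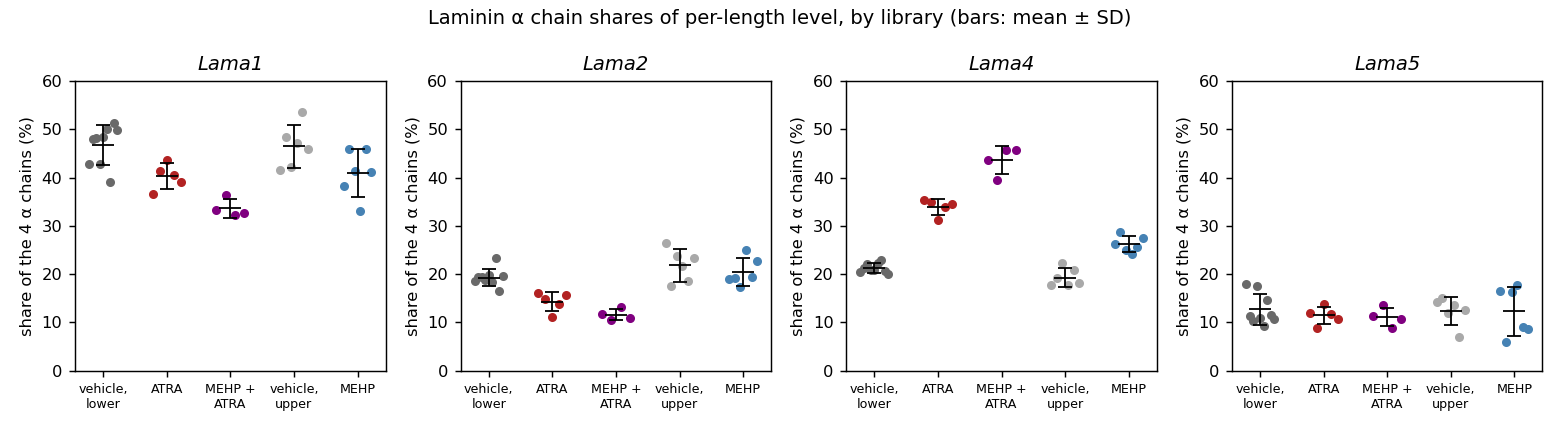
Share of each laminin alpha chain (y axis, percent from 0) in the summed per-length level of Lama1, Lama2, Lama4 and Lama5, by library and group; bars are mean ± SD. Lama4 goes from 21.3% to 43.6% of this sum with MEHP + ATRA and Lama1 from 46.7% to 33.6%. Lama3 is not in the sum.

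Most of the 6 listed fibrillar collagen genes, chains of types I, III and V, fell with ATRA and with MEHP + ATRA. Of these 6, 5 fell and 0 rose in each comparison (9.03% and 14.7% of all tested genes fell), with medians of -0.36 and -0.51. Col27a1, a fibrillar collagen outside this list, rose in both, by 0.69 ± 0.11 and 0.86 ± 0.11 in log2. With MEHP alone 1 of the 6 fell (1.84% of all tested genes fell) and the median was -0.14. Col3a1 (ENSMUSG00000026043, chr1:45311538-45349706), the collagen of fine reticular fibres and the most abundant of the 6 per length, had the largest falls of the 6. It ranged from 2721 to 3205 CPM (median 3032, n = 9) in lower-range vehicle and stood at 2187, 2066, 1668, 2137 and 2252 CPM with ATRA and 1753, 1671, 1974 and 1703 CPM with MEHP + ATRA. In upper-range vehicle it ranged from 2692 to 3187 CPM (median 2949, n = 6) and with MEHP from 2226 to 2627 CPM (median 2483, n = 6). In all 3 comparisons every treated library lay below every vehicle library. Col3a1 fell by 0.25 ± 0.06 with MEHP (edgeR adjusted p = 0.00986), by 0.54 ± 0.06 with ATRA (adjusted p = 3.30e-08) and by 0.76 ± 0.07 with both (adjusted p = 1.07e-10). The step from ATRA to both was -0.22 ± 0.07 and did not pass (edgeR adjusted p = 0.102). A microRNA gene of the annotation, Gm47302, lies within its exons (141 bases).

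The stretches before the starts of Col3a1 and Col5a1 are printed because both genes fell while their base composition is far apart. Capitals mark TATAAA in Col3a1 and the Sp1 motif on either strand in Col5a1 (RefSeq windows, GRCm38.p6, 250 bases each; chr1:45311288-45311537, strand + with 35.2% G + C, and chr2:27886175-27886424, strand + with 76.4% G + C).
Col3a1: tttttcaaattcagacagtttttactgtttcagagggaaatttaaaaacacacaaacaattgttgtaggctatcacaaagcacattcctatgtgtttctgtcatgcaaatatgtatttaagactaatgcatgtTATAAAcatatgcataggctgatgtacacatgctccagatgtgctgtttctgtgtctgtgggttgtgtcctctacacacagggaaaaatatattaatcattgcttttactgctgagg
Col5a1: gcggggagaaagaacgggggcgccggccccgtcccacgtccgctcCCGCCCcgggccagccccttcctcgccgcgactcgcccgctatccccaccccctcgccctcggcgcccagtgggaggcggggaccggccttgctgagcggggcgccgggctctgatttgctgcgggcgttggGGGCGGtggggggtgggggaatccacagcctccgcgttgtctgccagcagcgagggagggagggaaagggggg
Col3a1 held the letters TATAAA, near the middle of its stretch and not close to the start, and no Sp1 motif. Col5a1 held the Sp1 motif at 2 places and no TATAAA. Neither printed stretch held the CCAAT box or the half-site. These too are matches of letters and not shown sites.

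Col5a1, which helps to start fibrils and set their width, ranged from 835 to 1112 CPM (median 999, n = 9) in vehicle, against 734, 706, 652, 755 and 769 CPM with ATRA and 750.2, 688, 616 and 597 CPM with both. Its partner Col5a2, which lies 24614 bases from Col3a1 on the opposite strand, ranged from 238 to 288 CPM (median 264, n = 9) against 228, 191, 182, 208 and 219 and 169.5, 173, 193 and 181 CPM. In both genes all treated libraries were below the vehicle range. Col5a1 fell by 0.44 ± 0.08 and 0.56 ± 0.08 (edgeR adjusted p = 7.03e-05 and 3.02e-06), and Col5a2 by 0.36 ± 0.07 and 0.56 ± 0.07 (adjusted p = 1.43e-04 and 3.60e-07). Type I collagen, the main collagen of most fibrils, also fell, with overlap in 3 of the 4 comparisons of its 2 genes. Col1a2 ranged from 1653 to 2132 CPM (median 1867, n = 9) in vehicle against 1481, 1682, 1446, 1659 and 1598 CPM with ATRA, which overlap, and 1519, 1478, 1349.7 and 1202 CPM with both, which do not. It fell by 0.26 ± 0.07 (edgeR adjusted p = 0.00575) and 0.44 ± 0.07 (adjusted p = 2.16e-05). Col1a1 fell by 0.36 ± 0.13 with ATRA (edgeR adjusted p = 0.044), with overlap. This call was lost in 8 of the 30 fits that left out 1 library (ATRA replicates 1 to 4, lower-range vehicle replicates 3, 4, 8 or 9; adjusted p up to 0.106), with library size as the scaling (0.0571) and with all vehicle libraries as 1 group (0.0796). With MEHP + ATRA it fell by 0.47 ± 0.14 (adjusted p = 0.00863, and 0.0552 without MEHP + ATRA replicate 4). Col5a3, the scarce further chain of type V collagen, stood at 9.49 ± 1.69 CPM in vehicle and 10.1 ± 1.88 CPM with ATRA and was not called. The summed per-length level of the 6 genes was 838 ± 43 RPKM in lower-range vehicle, 629 ± 47.7 with ATRA and 561 ± 44.6 with MEHP + ATRA, and 809 ± 60.1 in upper-range vehicle and 724 ± 81.5 with MEHP.

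Markers of interstitial progenitor and peritubular myoid cells were called lower more often than higher with ATRA and with MEHP + ATRA. Beside the counts that follow, 9.03% of all tested genes were called lower and 9.06% higher with ATRA. With MEHP + ATRA these shares were 14.7% and 14.3%, and with MEHP 1.84% and 2.88%. Of 12 interstitial progenitor markers, 7 were called lower and 1 higher with ATRA and 6 and 1 with MEHP + ATRA. Their summed level was 2903 to 3224 CPM in lower-range vehicle, 2479 to 2601 with ATRA and 2275 to 2455 with MEHP + ATRA, without overlap. Of 10 peritubular myoid and smooth muscle markers, 4 were lower with ATRA, 6 with MEHP + ATRA and 0 higher in either. Their summed levels were 1168 to 1399, 1041 to 1115 and 1007 to 1103 CPM. With MEHP 0 of the 12 and 1 of the 10 were lower (2956 to 3492 against 2875 to 3505 CPM, and 1132 to 1281 against 1171 to 1498 CPM in upper-range vehicle). Of 10 Leydig markers, 2 were called higher and 3 lower with ATRA, and 2 and 2 with MEHP + ATRA. Of 9 macrophage markers, 0 were called in either comparison. None of these markers was at 0 in any group, and their part in the matrix results was not tested.

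**Figure D5:**
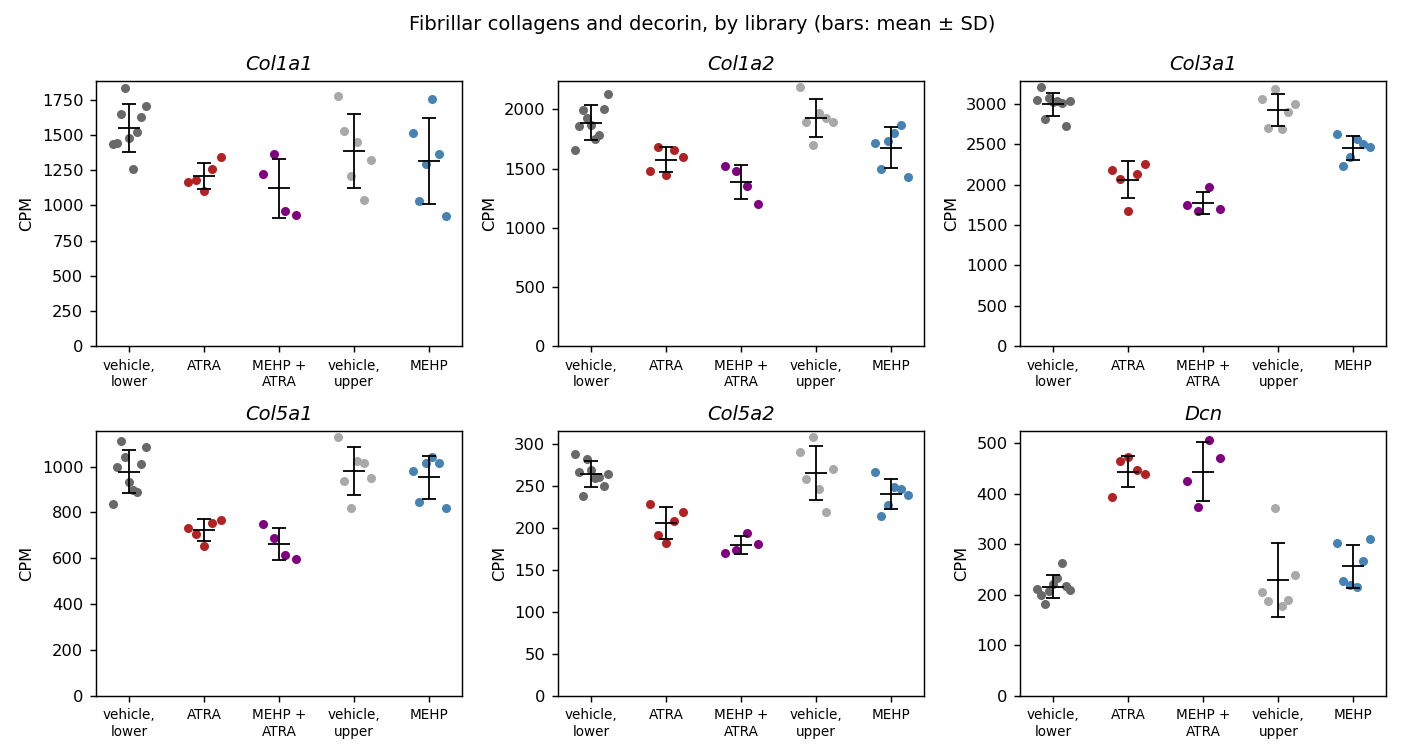
Level (y axis, CPM from 0) of 5 fibrillar collagen genes and of Dcn in each library, by group; points are libraries and bars the mean ± SD. Col3a1, Col5a1 and Col5a2 lie below the lower-range vehicle libraries with ATRA and MEHP + ATRA, and Dcn lies above them.

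Type VI collagen forms beaded microfibrils around cells from 3 chains, and 2 of them fell with ATRA and with MEHP + ATRA. Col6a1 ranged from 1312 to 1548 CPM (median 1425, n = 9) in vehicle and stood at 1194, 1153, 1097, 1179.9 and 1297 CPM with ATRA and 1124, 1147, 1087 and 1005 CPM with both, all below the vehicle range. It fell by 0.26 ± 0.05 (edgeR adjusted p = 6.56e-04) and 0.38 ± 0.06 (adjusted p = 7.49e-06). Col6a2, its neighbour on chromosome 10 at 85161 bases, fell by 0.26 ± 0.07 (adjusted p = 0.00754) and 0.50 ± 0.08 (adjusted p = 6.10e-06). Col6a3, the large chain encoded on chromosome 1, was at -0.03 ± 0.07 and -0.07 ± 0.08 and was not called, with 95% intervals of -0.18 to 0.12 and -0.24 to 0.09. Col14a1, a collagen that coats fibrils, rose with MEHP + ATRA, from 71.3 to 97.7 CPM (median 88.5, n = 9) in vehicle to 155, 98, 122 and 132 CPM, against 82.7, 91.3, 87.8, 97.4 and 88.1 CPM with ATRA alone. The co-treated libraries lay above all vehicle and all ATRA libraries, replicate 2 by little. The rise was 0.54 ± 0.11 against vehicle (edgeR adjusted p = 1.85e-04) and 0.50 ± 0.12 against ATRA (adjusted p = 0.0139). With MEHP alone the estimate was 0.28 ± 0.10 (adjusted p = 0.138). The interaction of Col14a1 was 0.22 ± 0.16 (95% interval -0.11 to 0.55), so a difference between the 2 MEHP steps was not shown. Over the 4 genes of type VI and XIV collagen, 0 were called with MEHP, 0 rose and 2 fell with ATRA, and 1 rose and 2 fell with both (medians -0.05, -0.15 and -0.23).

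Eln encodes elastin, the core of elastic fibres, and fell with ATRA and with MEHP + ATRA. It ranged from 278 to 517 CPM (median 398, n = 9) in vehicle and stood at 376, 233, 204, 254 and 289.9 CPM with ATRA and 197, 236, 191 and 199 CPM with MEHP + ATRA. ATRA replicates 1 and 5 lay inside the vehicle range and all 4 co-treated libraries lay below it. The fall was 0.57 ± 0.14 (edgeR adjusted p = 0.00401) and 0.97 ± 0.16 (adjusted p = 1.32e-05). Fn1, the fibronectin on which other matrix proteins assemble, fell by 0.35 ± 0.10 (edgeR adjusted p = 0.00952) and 0.37 ± 0.11 (adjusted p = 0.00846). Its level went from 379.7 to 673 CPM (median 556, n = 9) to 367, 454, 439, 435 and 489 CPM with ATRA and 443, 504, 394 and 391 CPM with both. The lowest vehicle library, replicate 7 at 379.7 CPM, lay among the treated ones and the other 8 above them all. Fbn1 (fibrillin 1, the scaffold of elastic fibres) fell by 0.21 ± 0.06 and 0.18 ± 0.07 (edgeR adjusted p = 0.0194 and 0.0441). Its ATRA call was lost without ATRA replicate 3 or 4 (adjusted p up to 0.105). Its MEHP + ATRA call was lost in 18 of the 30 fits that left out 1 library (up to 0.272). It was also lost with RLE scaling (0.0553), only the groups compared (0.0547), no filter on low counts (0.123) and the replicate block (0.0515). Gm9913 overlaps 2442 exon bases of Fbn1 on the other strand, and without the strand setting its effect on the Fbn1 count is not known. Fn1 and Eln overlap opposite transcripts by 292 and 267 bases. Fbn2, the fetal fibrillin, was at -0.16 ± 0.07 with ATRA and -0.15 ± 0.07 with both and did not pass (edgeR adjusted p = 0.0922 and 0.121). With limma-voom both falls were called (0.00571 and 0.00177), and with the replicate block the fall with ATRA was (edgeR adjusted p = 0.0321). Of the 4 genes, 0 were called with MEHP and 3 fell and 0 rose with ATRA and with both (medians -0.06, -0.28 and -0.27).

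The 3 small leucine-rich proteoglycans bind collagen fibrils, and each gave a separate result with ATRA. Dcn (decorin, ENSMUSG00000019929, chr10:97479500-97518162) rose from 182 to 262 CPM (median 212, n = 9) in vehicle to 394, 465, 473, 447 and 439 CPM with ATRA and 425, 374, 507 and 471 CPM with MEHP + ATRA. All 9 treated libraries lay above the vehicle range. Its rise of 1.04 ± 0.12 with ATRA (edgeR adjusted p = 1.23e-07) and 1.04 ± 0.13 with both (adjusted p = 1.80e-07) took it to 213 RPKM in either group against 104 in vehicle. With MEHP alone it ranged from 216 to 310.0 CPM (median 246, n = 6) against 178 to 373 CPM (median 198, n = 6) in upper-range vehicle (0.17 ± 0.13, edgeR adjusted p = 0.638). Without upper-range vehicle replicate 3, which holds the highest value, the edgeR adjusted p was 0.0234. Bgn (biglycan), a close relative of decorin, fell by 0.35 ± 0.07 with ATRA (edgeR adjusted p = 6.80e-04) and 0.38 ± 0.08 with both (adjusted p = 3.83e-04). It ranged from 357 to 427 CPM (median 382, n = 9) in vehicle against 383, 279.8, 269, 308 and 273 CPM with ATRA, where replicate 1 overlaps, and 322, 274, 308 and 283 CPM with both. Lum (lumican), which lies 47338 bases from Dcn on the same strand, stood at 74.1 ± 12 CPM in vehicle and 82.1 ± 6.15 CPM with ATRA and was not called (0.15 ± 0.15, 95% interval -0.16 to 0.45). The 3 genes had medians -0.07, 0.15 and 0.06 with MEHP, ATRA and both.

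Matricellular proteins modulate how cells meet the matrix without building it. Sparc (ENSMUSG00000018593, chr11:55394500-55423183), a collagen-binding protein found with basement membranes, rose with MEHP. It ranged from 1185 to 1416 CPM (median 1224, n = 6) in upper-range vehicle and 1539 to 1643 CPM (median 1579, n = 6) with MEHP. It ranged from 1156 to 1305 CPM (median 1188, n = 9) in lower-range vehicle against 1381, 1226, 1253, 1364 and 1320.2 CPM with ATRA and 1913, 1471, 1599.7 and 1577 CPM with both. The MEHP and the co-treated libraries lay above all their vehicle libraries and the ATRA libraries overlapped them. The rise was 0.32 ± 0.05 with MEHP (edgeR adjusted p = 1.08e-04), 0.45 ± 0.05 with both (adjusted p = 6.56e-08) and 0.33 ± 0.06 from ATRA to both (adjusted p = 0.00114). With ATRA alone the estimate was 0.12 ± 0.05 (edgeR adjusted p = 0.0991); it passed with limma-voom (0.00566), library size only (0.0447) and only the groups compared (0.0295). Postn (periostin), a crosslinker of stressed connective tissue, stood at 30.7 ± 6.15 CPM in lower-range vehicle, 25.6 ± 2.45 CPM with ATRA and 22.7 ± 4.83 CPM with both and was not called (with both -0.44 ± 0.23, edgeR adjusted p = 0.169). The pair had medians 0.07, -0.07 and 0.00 with MEHP, ATRA and both.

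From ATRA to MEHP + ATRA, 3 of the 37 rose (Lama4, Sparc and Col14a1) and 1 fell (Col4a6), against 3% of all genes called (1.62% higher and 1.38% lower). The count of higher genes was 5 without upper-range vehicle replicate 3 or without ATRA replicate 5, and the count of lower genes was 2 without ATRA replicate 3 and 6 with limma-voom. Against MEHP, with each treatment first set against its own vehicle, the co-treatment was higher in 4 genes (Dcn by 0.87 ± 0.19, Lama4 by 0.66 ± 0.08, Col4a3 by 0.91 ± 0.23 and Col4a4 by 1.08 ± 0.26) and lower in 9, against a background of 8.29% (4.06% higher and 4.23% lower); limma-voom called 15 lower. The 9 were Eln (-0.81 ± 0.21), Col4a6 (-0.77 ± 0.10), Lama2 (-0.56 ± 0.17), Col5a1 (-0.52 ± 0.11), Col3a1 (-0.50 ± 0.09), Col5a2 (-0.42 ± 0.10), Col4a5 (-0.41 ± 0.08), Col6a2 (-0.37 ± 0.10) and Col6a1 (-0.32 ± 0.08). The interaction, that is the MEHP step with ATRA less the MEHP step without it, was called in 0 of the 37 by edgeR (background 0.0311%, with 0.0104% higher and 0.0207% lower), with 0 at an unadjusted p under 0.05, and in 0 by DESeq2 and by limma-voom. The smallest unadjusted p was 0.112, and the 95% intervals of all 37 held 0. Their half-widths ran from 0.16 (log2) to 0.82 with a median of 0.25, so departures from additivity within those widths were not detectable here. Between the vehicle groups of the 2 ranges edgeR called 0 of the 37 (background 0.373%), with 6 at an unadjusted p under 0.05, and DESeq2 called 2.

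Other genes of the matrix pathway are given by list, with the genes of smallest p in each comparison named. Their counts stand beside the shares called over all tested genes, which were 2.88% higher and 1.84% lower with MEHP, 9.06% and 9.03% with ATRA, and 14.3% and 14.7% with MEHP + ATRA. Of 22 tested further collagen chains, 2 rose and 0 fell with MEHP, 4 rose and 5 fell with ATRA, and 5 rose and 8 fell with MEHP + ATRA (medians -0.05, 0.12 and -0.12). Col27a1, a fibrillar collagen of cartilage, rose in all 3, by 0.49 ± 0.11, 0.69 ± 0.11 and 0.86 ± 0.11 (log2 fold change ± SE; edgeR adjusted p = 0.00746, 1.47e-05 and 5.07e-07). Col9a3 rose by 0.50 ± 0.14 with MEHP, Col8a1, a chain of short-chain network collagen, by 1.20 ± 0.22 with ATRA, and Col16a1 fell by 0.68 ± 0.10 with both. Of 41 other matrix glycoproteins and proteoglycans, 0 rose and 7 fell with MEHP, 7 rose and 13 fell with ATRA, and 9 rose and 19 fell with both (medians -0.06, -0.17 and -0.27). Lama3, the laminin alpha chain of epithelia, fell by 0.75 ± 0.09 with MEHP (edgeR adjusted p = 1.34e-06), as did Fbln5, an elastic fibre assembly protein, by 0.48 ± 0.08 (adjusted p = 4.10e-04). Ecm1, a secreted matrix glycoprotein, rose by 3.31 ± 0.09 with ATRA and 3.41 ± 0.10 with both, and Bcan, a hyaluronan-binding proteoglycan, fell (log2 fold change -1.69 ± 0.14 and -2.54 ± 0.16).

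Of 30 genes of collagen folding, modification and crosslinking, 2 rose and 0 fell with MEHP, 6 rose and 10 fell with ATRA, and 9 rose and 9 fell with MEHP + ATRA (medians 0.04, -0.08 and -0.03). Tll1, a protease that trims procollagen ends, fell by 1.43 ± 0.19 and 2.67 ± 0.23 with ATRA and with both (edgeR adjusted p = 6.62e-07 and 8.39e-11). Its relative Bmp1 fell by 0.38 ± 0.05 with both, and P4ha3, a prolyl hydroxylase subunit, by 0.76 ± 0.13 with ATRA. Pxdn, the peroxidase that crosslinks type IV collagen, rose by 0.33 ± 0.05 with MEHP (edgeR adjusted p = 1.19e-04), and P3h2, a prolyl hydroxylase of type IV collagen, by 0.31 ± 0.08. Of 28 proteases and inhibitors, 0 rose and 1 fell with MEHP, 3 rose and 13 fell with ATRA, and 5 rose and 13 fell with both (medians -0.04, -0.26 and -0.22). Adamts1, a protease of matrix proteoglycans, fell by 0.82 ± 0.07 with ATRA and 0.99 ± 0.08 with both, and Timp2, an inhibitor of matrix metalloproteases, by 0.62 ± 0.06 and 0.76 ± 0.06. With MEHP, Adamts5 fell by 0.52 ± 0.14, and Plat stood at 0.44 ± 0.14 (edgeR adjusted p = 0.0683). Of 26 matrix receptors, 3 rose and 0 fell with MEHP, 1 rose and 8 fell with ATRA, and 3 rose and 8 fell with both (medians 0.00, -0.08 and -0.13). Itga4, a fibronectin receptor subunit, fell by 0.72 ± 0.08 and 1.05 ± 0.09, and Itga6, a laminin receptor subunit, by 0.48 ± 0.07 with ATRA. Itgb5 rose by 0.50 ± 0.11 with MEHP and 0.96 ± 0.11 with both, and Itga3, another laminin receptor subunit, by 0.63 ± 0.17 with MEHP. Of 18 TGF-beta ligands, receptors and targets, a pathway that raises collagen genes in many cells, 1 rose and 0 fell with MEHP, 2 rose and 6 fell with ATRA, and 4 rose and 7 fell with both (medians -0.00, -0.07 and -0.01). Smad7, an inhibitor induced by the pathway, fell by 0.62 ± 0.09 and 0.96 ± 0.10. Ltbp1, which stores its ligands in the matrix, rose by 0.86 ± 0.12 and 0.84 ± 0.13. With MEHP Tgfbr3 rose by 0.22 ± 0.05 while Ccn2 was at -0.32 ± 0.12 (edgeR adjusted p = 0.133).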

How the data were processed

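RNA was measured in 30 libraries from fetal testis cultures, with groups taken from the treatment labels and vehicle split by the range of the second title number (below or above 500). Each library has 1 deposited table of gene counts, not normalized, in the featureCounts layout, per the file headers. Oligo-dT beads and the NEBNext Ultra II chemistry were used for library making, per the labels' protocols. Per the submitters' processing notes, the tools were bcl2fastq 2.20, Trimmomatic 0.36, STAR 2.5.2b, featureCounts of Subread 1.5.2, and DESeq2; for genome build, annotation and strand setting the entry is "not given in the sources used here", so opposite-strand overlaps cannot be resolved. Symbols covered 99.3% of identifiers and 99.47% matched GENCODE M21, 91.37% with the same ends. Library totals of 17551454 to 29306917 set the precision, and the lowest matrix count was 68. No per-sample column was without a labelled sample, and no 2 libraries were identical.

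Tests ran on these counts in edgeR 4.0.16 under R 4.3.3 (filterByExpr with a minimum count of 10, 19323 genes; TMM factors 0.975 to 1.02; one quasi-likelihood fit of 5 groups over all libraries with 25 residual degrees of freedom; biological coefficient of variation 12.7%). Tests were two-sided F tests with Benjamini-Hochberg adjustment over all genes at a threshold of 0.05, for 7 contrasts. Each standard error was derived from the F statistic. RPKM used the Length column of the files, an annotated length for the gene and not that of its main transcript. Alternatives were RLE scaling, library size only, no filter, DESeq2 1.42.0, limma-voom (limma 3.58.1), a block on the first title number, only the groups compared, all vehicle libraries as 1 group, and leaving out each library. On simulated counts for ATRA against vehicle over 19323 genes, 64 of 100 genes changed 1.5-fold and 81 of 100 changed 2-fold were recovered, with 4 unchanged genes among 149 calls. The changed genes were drawn from all genes above a low count, and the data themselves gave 3494 calls. These rates therefore do not give the recovery for the matrix genes. The labels do not say what the first title number stands for. Deviations of same-numbered vehicle and MEHP libraries correlated at r from 0.346 to 0.648 over the 4 upper-range numbers, so the values with a replicate block are given beside the MEHP results they change.

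All 37 genes are named whatever their result, and of 6 lists of related genes the 2 with the smallest p in each treatment comparison, with Dhrs3 and Angptl4 as checks. The members, the 6 role groups, the 6 further lists and the 9 cell type marker lists were chosen with earlier results of these data known, so no list was tested. Promoter windows (RefSeq, 250 bases before to 50 after a start) matched 24 of the 37 genes; Fn1, Col1a1, Col14a1, Nid2, Lama4, Lum, Col5a2, Eln, Dcn, Lamc1, Lama1, Fbn2 and Col4a3 are the others.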

Additional observations from a re-analysis of the deposited data

Results flagged for a closer look

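In 14 of the 185 combinations of gene and group tested, 1 library lay so far from the rest that the gap took up more of the group's range than a 95% limit allows; chance alone flags about 1 in 20 such groups. Upper-range vehicle replicate 3 was highest in Dcn (373 CPM, with the others at 178 to 239) and Lum (130.3 CPM, with the others at 54.2 to 65.8) and lowest in Fbn2 (285 CPM, with the others at 328 to 352). Lower-range vehicle replicate 7 was highest in Sparc (1305 CPM, with the others at 1156 to 1228) and Lum (103 CPM, with the others at 60.9 to 78.8) and lowest in Fn1 (379.7 CPM, with the others at 525 to 673). MEHP replicate 4 was highest in Eln (502 CPM, with the others at 301 to 359), Bgn (422 CPM, with the others at 322 to 354) and Lamb1 (1026 CPM, with the others at 837 to 889). MEHP replicate 2 was lowest in Col4a5 (117 CPM, with the others at 141 to 147) and MEHP replicate 6 in Col6a3 (319 CPM, with the others at 392 to 434). ATRA replicate 3 was lowest in Col4a1 (962 CPM, with the others at 1185 to 1238). MEHP + ATRA replicate 1 was highest in Nid1 (489 CPM, with the others at 434 to 442) and lowest in Postn (15.5 CPM, with the others at 24.6 to 25.9).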

How the results depend on the processing

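No called log2 fold change of a matrix gene changed sign under the alternatives run. With MEHP, 2 higher became 5 with a replicate block on the first title number and 8 with all vehicle libraries as 1 group, and 1 lower became 2 with RLE scaling, library size only, the block or 1 vehicle group and 3 with DESeq2. From ATRA to MEHP + ATRA the 1 lower became 6 with limma-voom and 2 with the block, and of MEHP + ATRA against MEHP the 9 lower became 15 with limma-voom. In the range comparison DESeq2 called 2 higher against 0. The block added Lamb1, Lamc1 and Col18a1 as higher and Col15a1 as lower with MEHP, called Hspg2 higher (adjusted p 0.0142) and lost Fbn1 (0.0515) with MEHP + ATRA, and called Fbn2 lower with ATRA (0.0321); it moved the other counts by under 1.5 times, and could not be fitted for the range. In the lower range the first number was not taken as a pairing, because 2 of its 5 numbers correlated at under 0.1 (0.0832 and 0.0875). The others correlated at 0.105, 0.450 and 0.472, so a pairing there is not excluded. All 9 numbers correlated best with themselves, a hint from the data only. With 1 library left out, members called ranged from 2 to 4 higher and 1 to 4 lower with MEHP, 4 to 6 and 15 to 19 with ATRA, 11 to 12 and 14 to 17 with MEHP + ATRA, 2 to 5 and 1 to 2 against ATRA, 4 to 5 and 7 to 10 against MEHP, and stayed 0 to 0 in both directions for the interaction and the range. For MEHP, higher was 4 without MEHP replicate 2 or upper-range vehicle replicates 1 or 5, lower was 4 without upper-range vehicle replicate 3, and lower was 2 without MEHP replicates 2 or 3, ATRA replicate 3 or upper-range vehicle replicates 2 or 5. Over all genes, calls with MEHP were 912, against 439 with only the groups compared and 2229 with 1 vehicle group; with ATRA 3494, against 5527 with limma-voom; from ATRA to both 579, against 1653 with limma-voom; in the interaction 6, against 12 with DESeq2 and 2 with the block or with only the groups compared; and between ranges 72, against 338 with DESeq2, 136 with limma-voom, 19 without a filter and 0 with only the groups compared. Calls over all genes with MEHP were 1227 with the block (713 higher and 514 lower). With all vehicle libraries as 1 group, 1275 were higher and 954 lower. The cause of these moves was not tested. Counting depth bears most on Col4a3 and Col5a3, with as few as 68 and 91 counts in a library.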

Other observations

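The 2 chains of type I collagen kept a ratio of Col1a1 to Col1a2 per length of 1.56 ± 0.124 in lower-range vehicle (n = 9), 1.46 ± 0.0959 with ATRA (n = 5) and 1.52 ± 0.167 with MEHP + ATRA (n = 4), and of 1.36 ± 0.19 and 1.47 ± 0.239 in upper-range vehicle and MEHP (n = 6 each). The summed per-length level of the 18 basement membrane genes was 843 ± 74 RPKM in lower-range vehicle, 759 ± 46.1 with ATRA and 846 ± 89.8 with MEHP + ATRA, and 878 ± 131 and 915 ± 48 in upper-range vehicle and MEHP. Libraries of treated and vehicle groups overlapped in both measures. In CPM, without scaling to length, Col1a2 was the higher type I chain in lower-range vehicle, at 1887 against 1551 for Col1a1. Genes side by side on a chromosome gave these values: Dcn rose with ATRA by 1.04 ± 0.12 while Lum, 47338 bases away, was at 0.15 ± 0.15, and Col3a1 and Col5a2, 24614 bases apart, fell by 0.54 ± 0.06 and 0.36 ± 0.07.

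Of the other cell type lists, Leydig markers were called 1 higher and 1 lower of 10 with MEHP, 2 and 3 with ATRA and 2 and 2 with MEHP + ATRA; germ cell markers 0 and 0 of 12, 2 and 1, and 2 and 4; macrophage markers 0 and 0 of 9 in all 3; erythroid markers 0 and 0 of 8, 1 and 1, and 0 and 1; and mesonephros and epithelial markers 0 and 0 of 8, 2 and 0, and 2 and 1. Sertoli markers were 4 higher and 1 lower of 16 with MEHP. Beside these counts, 2.88% of all tested genes were called higher and 1.84% lower with MEHP. The shares were 9.06% and 9.03% with ATRA, and 14.3% and 14.7% with MEHP + ATRA.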
